A study of Mus musculus with 3 samples.

Results

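Validation-only intervals outside genes are stretches of the mouse genome that were listed as LMX1B-bound in only the second of a pair of chromatin immunoprecipitation (ChIP-seq) samples and that lie away from every annotated gene. They numbered 1403 of the 4501 intervals of that sample (31.2%, 95% Wilson interval 29.8 to 32.5). Members were chosen by their lack of any overlap of 1 bp or more with an interval of the first ChIP, and by an interval midpoint outside all RefSeq gene bodies and more than 1 kb from any gene end. The absence from the first ChIP and the place outside genes are therefore selection criteria and not results. In the whole validation list 3800 intervals (84.4%) had no overlap with the first ChIP, and of its 1698 intervals outside genes 82.6% were members, a share close to that of the whole list.

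The series recorded LMX1B occupancy in limb buds of C57BL/6 embryos at embryonic day 12.5. Buds of both limb pairs were combined, with 48 buds in each of 2 runs. Tissue was fixed in 1% formaldehyde for 15 min, chromatin was sheared to 300 to 500 bp, and LMX1B was precipitated from 30 µg of chromatin with 20 µl of the polyclonal antibody BMO8 (also spelled BM08 in the labels). The first ChIP listed 1287 intervals; the second sample, titled as a validation and called the validation ChIP here, used the same antibody. The first ChIP is marked wild-type in its track name, whereas the track of the validation ChIP names no genotype. Whether separate chromatin was used for each is not stated. An input sample came from pooled wild-type and mutant chromatin and had no interval list. Pooled limb buds hold many cell types, and interval lists carry no expression values, so the tissue could not be checked against marker genes and an interval cannot be assigned to a cell type. With 1 sample per ChIP there was no spread between replicates and no test between samples. The confidence intervals given below cover counting error only.

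LMX1B is a LIM homeodomain transcription factor that is made in the dorsal mesenchyme of the limb bud and gives the limb its dorsal character. Homeodomain proteins bind short AT-rich sequences, many of which carry the letters TAAT. Genes that pattern the limb are often controlled by enhancers placed far from them in gene-poor sequence, so an interval outside genes cannot be tied to a target by distance alone. The gene named beside an interval here is the protein-coding gene with the nearest end, as an address on mm10. Nearest genes of other kinds are said where they matter.

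The members' own sequences and their motifs were not analysed here. Promoters could be read for the genes next to them, and those of Hand2 and Tbx18 are shown because both genes encode limb bud transcription factors with several members around them and also carry a validation-only interval over the promoter. Windows of Sall1, Prrx1 and Lmx1b also lay under a validation-only interval, in whole or in part, and are not shown. Those of Sall1 and Prrx1 fall inside their own gene bodies, and that of Lmx1b overlaps its own only in part. In the order Sall1, Prrx1 and Lmx1b, these windows held 1, 4 and 0 TAAT matches, with TAATTA only in Prrx1. The choice of windows to show was made after the data had been seen. Each line gives the 250 bp upstream of the annotated start from RefSeq on GRCm38.p6, 5′ to 3′ on the strand of the gene. Capitals mark each TAAT on either strand (read as TAAT or ATTA), and overlapping matches that form TAATTA are joined.
Hand2: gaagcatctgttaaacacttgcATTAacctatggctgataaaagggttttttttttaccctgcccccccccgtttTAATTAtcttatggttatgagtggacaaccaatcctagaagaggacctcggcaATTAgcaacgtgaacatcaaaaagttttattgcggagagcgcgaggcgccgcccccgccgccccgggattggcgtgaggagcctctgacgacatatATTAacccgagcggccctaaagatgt
Tbx18: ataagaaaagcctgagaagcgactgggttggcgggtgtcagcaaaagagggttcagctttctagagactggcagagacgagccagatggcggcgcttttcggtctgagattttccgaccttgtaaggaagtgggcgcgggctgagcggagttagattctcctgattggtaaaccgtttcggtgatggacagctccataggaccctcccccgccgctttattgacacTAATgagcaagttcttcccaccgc
The Hand2 window (chr8:57320733-57320982, plus strand) held 5 TAAT matches, of which 1 pair formed TAATTA, and lay inside a validation-only interval at 57320466 to 57321189 with a score of 12. This window also overlaps another annotated gene. The Tbx18 window (chr9:87731261-87731510, minus strand) held 1 TAAT match and no TAATTA, and 204 bp of it lay under a validation-only interval at 87730873 to 87731464 with a score of 16. Of 32851 annotated promoters, 54.9% held at least 1 TAAT in such a window, with a median of 1, and 4.84% held TAATTA. The intervals over the Hand2 and Tbx18 promoters are at gene ends and are not members. No member overlapped a promoter window, which the 1 kb limit from gene ends all but fixed in advance. Of the 950 genes nearest to a member, 35 had some validation interval over a promoter window. The share among all coding genes was not computed, so this count does not set these genes apart.

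The selection limits fell on a continuous range of distances. The members closest to a first-ChIP interval without touching it lay 45 bp away (nearest gene Rpusd4, chr9:35326842-35327404, score 13), 56 bp away (Col1a2, chr6:4557737-4558307, score 13) and 94 bp away (Bcl11a, chr11:24643476-24644181, score 14). The intervals outside genes that just failed to qualify overlapped one by 35 bp (chr6:51172791-51173801, score 15), 41 bp (score 16) and 48 bp (score 12). Thus neighbours of a first-ChIP interval stood on both sides of the limit with like scores. At the gene limit, the members nearest to any gene lay 1001 bp from the long non-coding RNA gene Gm30855 near Sox11 (chr12:27343994-27344313, score 10), 1036 bp from Nectin1 (chr9:43808276-43808718, score 9) and 1045 bp from the long non-coding RNA gene Gm11690 near Sdk2 (chr11:114239321-114239773, score 12). Just excluded were intervals 998 bp from Fgf10 (chr13:118713462-118713940, score 9), 943 bp from Ccng2 (score 10) and 937 bp from H3c6 (score 13).

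Most members lay far from any first-ChIP interval, and the rule had removed every interval that overlapped one. The gap to the nearest one was under 0.5 kb for 16 members, under 1 kb for 23, under 10 kb for 91 and under 50 kb for 239 (17.0%). The median gap was 342 kb, with quartiles of 95.2 and 953 kb, over the 1402 members on chromosomes that had any first-ChIP interval. Little sequence lies close to these intervals. On autosomes, 2.52% of the sequence that the rule could select lay within 50 kb of a shared interval. For first-ChIP-only intervals it was 1.83%. Members were more dense in both than elsewhere, as given below.

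Each interval came with a whole-number summit score from the authors, whose unit is not stated and which was read only within the validation list. Member scores ran from 7 to 32 with a median of 11 and quartiles of 9 and 13. The 295 shared intervals outside genes, which overlapped the first ChIP, ran from 8 to 43 with a median of 16 and quartiles of 13 and 21. Member scores were thus mostly low, although both ranges overlapped widely. The 1776 validation-only intervals in gene bodies had the same median and quartiles as the members, and the 621 at gene ends had a median of 10. Members spanned 258 to 1672 bp with a median of 542 bp, against 759 bp for shared intervals outside genes and 552 bp for validation-only intervals in gene bodies. Across members, width correlated with score (Spearman's rho 0.438 over 1403 intervals of 1 library), while score and distance to a protein-coding gene had a rho of -0.0008.

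**Figure D1:**
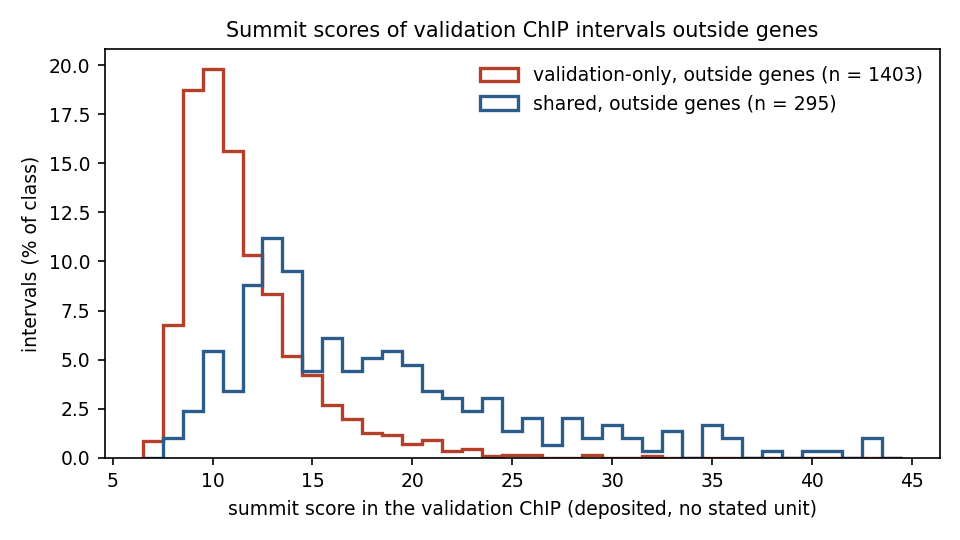
Histogram of summit scores (x axis, deposited values without a unit) as a percent of each class (y axis), for the 1403 validation-only and 295 shared validation intervals outside genes. The validation-only class peaks at lower scores, with a median of 11 against 16, and its tail reaches 32.

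The share of intervals outside genes that were members fell with score; since the overlap rule made this split, the shares are a description. At scores of 7 to 9, 97.4% of intervals outside genes were unshared, at 10 to 11 the share was 95.03%, at 12 to 13 81.6% and at 14 to 32 57.8%. The 274 members in the top score class did not lie nearer to protein-coding genes than the 370 in the bottom class, with medians of 95.1 and 92.7 kb. They more often had another member within 50 kb, 31.4% (26.2 to 37.1) against 18.7% (15.0 to 22.9).

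The member with the highest score, 32, lay on chromosome 13 at 31710518 to 31711125, between the forkhead transcription factor genes Foxf2 and Foxc1 and 79.4 kb downstream of Foxf2. The other members nearest to Foxf2 scored 10 and 9, so this interval stood alone in height. Next came a member with a score of 29 between Npvf and Gm38821 (chr6:51196199-51197784), 26.0 kb from the predicted gene Gm38821, with 3 further members of scores 11 to 15 nearest to the same gene. Another score of 29 was found 37.2 kb upstream of Tspan2, which encodes a tetraspanin (chr3:102697225-102697838), only 1077 bp from the long non-coding RNA gene Gm40112 and 1369 kb from any other member.

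Scores of 26 were reached 42.3 kb upstream of Ube2e1, a ubiquitin-conjugating enzyme gene (chr14:18373955-18374656), and 10.5 kb upstream of Tll1 (chr8:64216215-64216805). Tll1 encodes a metalloprotease of the tolloid family that processes procollagens and BMP antagonists, and its 2 other members scored 12 and 9. With a score of 25, a member lay 19.1 kb upstream of Spp1, which encodes the bone matrix protein osteopontin (chr5:104415481-104416553). A second member upstream of Spp1 scored 12. The other score of 25 lay in the gap between Sox11 and Dcdc2c (chr12:28286156-28286869), 151 kb from Dcdc2c and 7571 bp from a first-ChIP interval. Sox11 encodes a transcription factor of mesenchymal and neural progenitors.

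Sox9, the master regulator of cartilage, had a member with a score of 24 at 227 kb (chr11:113014139-113015123) and 3 with scores of 12, 11 and 9 at 494, 370 and 215 kb. The list of 10 closed with scores of 23 at 156 kb upstream of Lrig3, a leucine-rich repeat receptor gene (chr10:125809814-125811239), and in the gap between Ebf1 and Clint1 (chr11:45549890-45550968), 302 kb from Clint1. Further members tied at 23, among them one 403 kb downstream of Robo1, a receptor for Slit guidance cues. Of these 10 highest members, the ones near Tspan2, Ube2e1, Tll1 and Spp1 had no first-ChIP interval within 1 Mb, and the gap at Ube2e1 was 1973083 bp.

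Members lay on every autosome, at densities that differed between autosomes, and were sparse on the sex chromosomes. Sequence eligible by the rule, that is more than 1 kb from any gene and counted from 3 Mb on, came to 1352 Mb, assembly gaps included, and held 1.04 members per Mb (exact Poisson interval 0.984 to 1.09). Autosomes ranged from 0.865 per Mb on chromosome 16 (0.621 to 1.17) to 1.58 on chromosome 11 (1.25 to 1.97) and 1.58 on chromosome 18 (1.23 to 1.99). Chromosome X held 14 members, or 0.127 per Mb (0.0694 to 0.213), below the interval of every autosome. It had no shared and no first-ChIP-only interval outside genes, which allows up to 0.0335 per Mb.

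Among the members on X, Efnb1, which encodes an ephrin ligand active in limb skeletal patterning, had one 100 kb downstream (chrX:99248936-99249595, score 14). The single member on Y, near LOC665918, had a score of 20. It lay before 3 Mb, ahead of the sequence measured for the densities, but was counted in them. The sexes of the pooled embryos and the depth of mapping on X are not given, and their part in the low density was not tested.

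**Figure D2:**
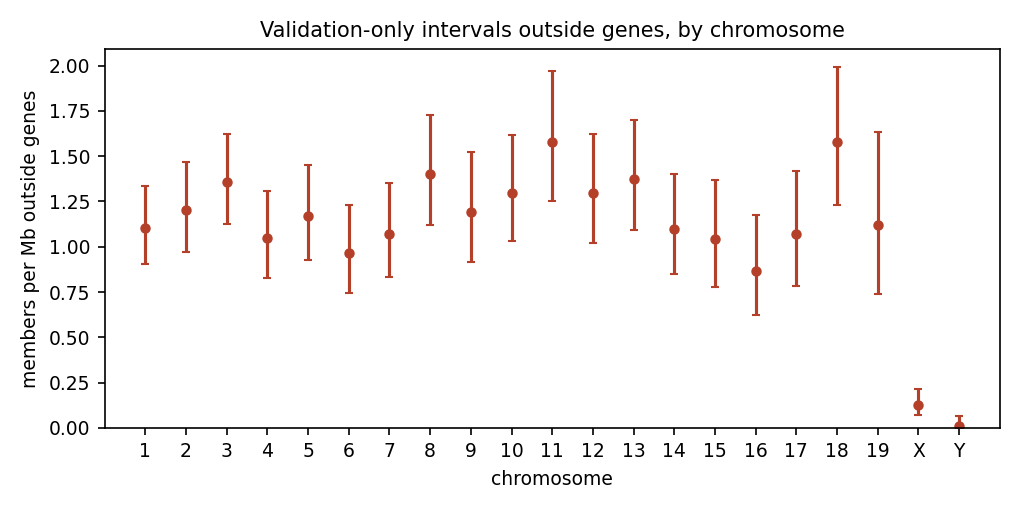
Members per Mb of eligible sequence (y axis) on each chromosome (x axis), with exact 95% Poisson intervals as bars. Autosomes lie between 0.865 and 1.58 per Mb, and X lies at 0.127.

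Relative to protein-coding genes, members lay a median of 92.8 kb from the nearest gene end, with quartiles of 25.6 and 235 kb. Shared intervals outside genes had a median of 139 kb and quartiles of 40.5 and 258 kb. The member density was 1.01 per Mb (0.873 to 1.17) in sequence under 10 kb from a coding gene, 1.26 (1.13 to 1.40) at 100 to 250 kb and 0.585 (0.483 to 0.702) beyond 500 kb. By the size of the gap between flanking coding genes, the density was 0.967 per Mb (0.853 to 1.09) in gaps under 100 kb, 1.43 (1.29 to 1.59) in gaps of 500 kb to 1 Mb and 0.792 (0.711 to 0.879) in gaps over 1 Mb. Members were thus most dense in gaps of middle size, where the 85 shared intervals were also at their highest density, 0.349 per Mb (0.279 to 0.432). Sex chromosomes are included in these values. X and Y made up 8.15% and 6.27% of the eligible sequence and held 14 members and 1 member. Densities by gap size and distance were not computed for autosomes alone. The part of X and Y in the low values of the largest gaps and distances was therefore not tested.

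**Figure D3:**
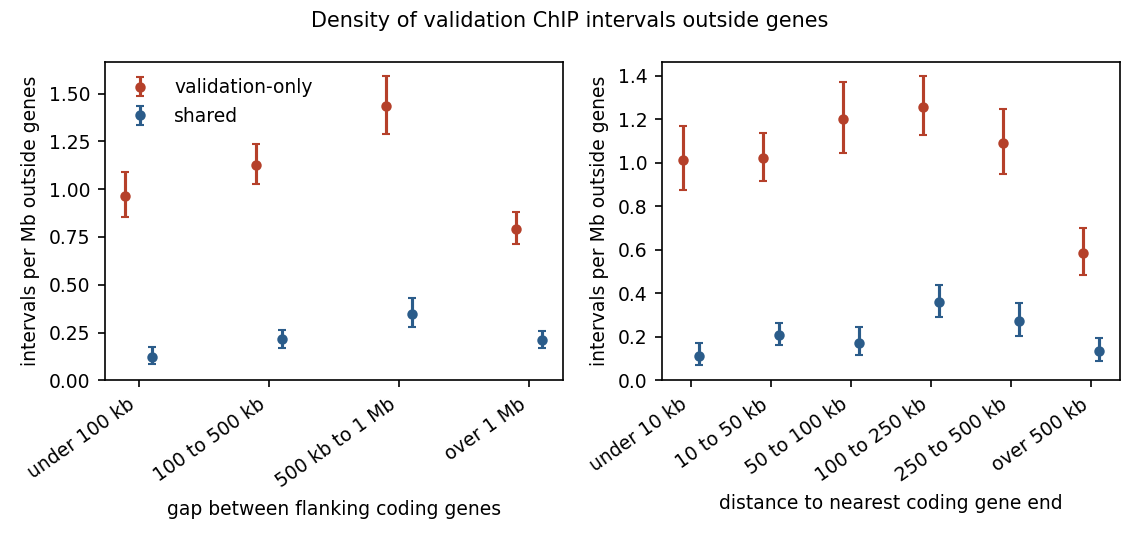
Intervals per Mb of eligible sequence (y axes) for validation-only and shared intervals outside genes, by the size of the gap between flanking coding genes (left) and by distance to the nearest coding gene end (right), with exact 95% Poisson intervals as bars. Validation-only density is highest, 1.43 per Mb, in gaps of 500 kb to 1 Mb and lowest, 0.585 per Mb, beyond 500 kb from a coding gene.

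The most remote members lay in very large gene deserts. One lay 2126 kb downstream of Olfm4 (chr14:82149014-82149495, score 9) in the 4420 kb gap before the protocadherin gene Pcdh17, and another lay 2109 kb from Pcdh20 (chr14:90579551-90580353, score 11) in the 4542 kb gap before Pcdh9. The others were near Tenm2 at 1535 kb (chr11:38771481-38772133, score 11), Map3k7 at 1407.5 kb (chr4:30555484-30556416, score 20) and Aga at 1407 kb (chr8:52103901-52104599, score 9). Teneurins and protocadherins such as Tenm2 and Pcdh9 are cell adhesion proteins best known from the nervous system. Map3k7 encodes the kinase TAK1, which acts in BMP and TGF-beta signalling, although the other flank of its gap is the guidance receptor gene Epha7.

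The nearest gene of any kind was a long non-coding RNA gene for 556 members (39.6%, while such genes made up 25.5% of the gene table), a protein-coding gene for 396 (28.2% against 43.9%) and a pseudogene for 328 (23.4% against 19.9%). Micro-RNA genes were the nearest for 17. These shares describe gene annotation around the members and not binding to those genes. The shares of the gene table count genes and not the sequence nearest to them, so they are not a like background. Of the 1071 members whose nearest coding gene had a known strand, 519 lay upstream (48.5%, 45.5 to 51.5) and 552 downstream. Eligible sequence with a strand was 52.4% upstream, just above that interval, so members did not gather on the upstream side.

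Members occupied 872 of 19643 gaps between neighbouring coding genes (4.44%), and 41 gaps with at least 5 members held 280 of them (20.0%). The fullest gap lay between Slc4a3, an anion exchanger gene, and Epha4 on chromosome 1. Epha4 encodes an Eph receptor that guides motor axons into the dorsal or ventral limb. Its 1807.8 kb (chr1:75559432-77367181) held 15 members with scores of 9 to 17, along with 2 shared intervals and 1 first-ChIP-only interval. The members stood along most of the gap, from 22.5 kb past Slc4a3 to 110 kb short of Epha4. Those nearest to Epha4 formed a close pair at 77256452 to 77256823 (score 16) and 77257076 to 77257656 (score 17). In all, 9 members were nearest to Epha4, 8 on its downstream side and 1 upstream, and 7 were nearest to Slc4a3. Neither shared interval was nearest to Epha4. The body of Epha4 held no validation-only interval more than 1 kb from any gene end, and nearer ones were not counted.

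The desert between Zfp608, a zinc finger gene on chromosome 18, and Gramd3 ranked next, with 14 members of scores 8 to 17 in 1394.9 kb. The desert on the other side of Zfp608, 932.4 kb back to Csnk1g3, held 9 with scores of 10 to 21. Zfp608 was the gene nearest to the most members, 10, at 141 to 574 kb. Its body held 4 further validation-only intervals more than 1 kb from any gene end. Next to them, Csnk1g3 was nearest to 7 members and Gramd3 to 6. The member with a score of 21 closed a group of 5 within 31.4 kb (chr18:54090984-54122396), which otherwise scored 10 to 13.

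Zfp703, which encodes a zinc finger transcriptional repressor, was nearest to 9 members on chromosome 8 with scores of 9 to 15, at 144 to 383 kb. They shared its 813.2 kb gap to Thap1 with 2 nearer to Thap1, and a run of 5 spanned 54.9 kb (chr8:26779058-26833920). The predicted gene Gm44812 on chromosome 7 also had 9, all downstream and with scores of 9 to 13. On chromosome 4 the gap from Plpp3 to Usp24 held 11 members, with scores of 9 to 17, and 3 shared intervals, and Usp24 was nearest to 7 of the members. The latrophilin receptor gene Adgrl2 was nearest to 7, all upstream at 694 to 1197 kb.

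Of the genes nearest to 6 members, Cdh11 encodes a cadherin of mesenchymal cells and Sema3a a repulsive axon guidance ligand. The Cdh11 members lay 115 to 1068 kb away with scores of 8 to 15. The Sema3a members lay 25.6 to 239 kb away with scores of 10 to 14, 4 upstream and 2 downstream, and no shared interval outside genes was nearest to it. The remaining genes with 6 were Gm11677, Nt5e and Ttll7.

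**Figure D4:**
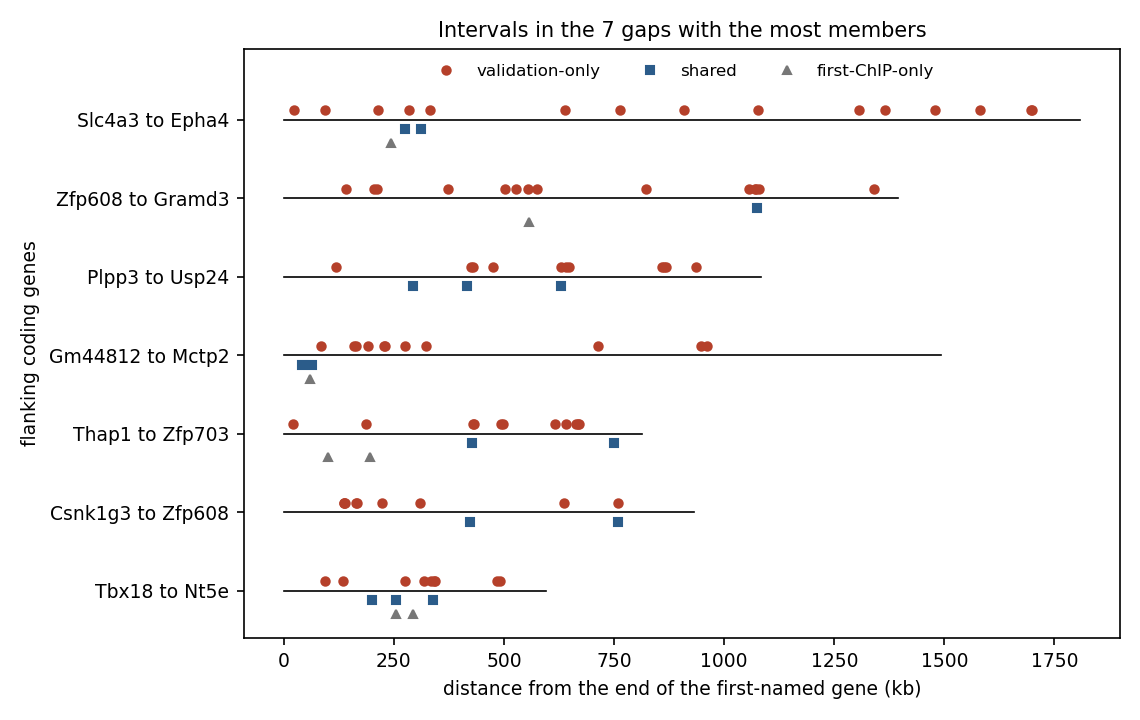
Positions of validation-only members (circles), shared intervals (squares) and first-ChIP-only intervals (triangles) in the 7 coding-gene gaps with the most members, as distance in kb from the end of the first-named gene (x axis). Members are spread along the Slc4a3 to Epha4 gap of 1807.8 kb, which holds 15, and are grouped in the gap from Thap1 to Zfp703.

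Single members were the rule all the same. Of 1403, 1043 had no other member within 50 kb, and 360 (25.7%, 23.4 to 28.0) had one. Chaining members at that distance gave 116 pairs, 24 groups of 3, 7 of 4, 3 of 5 and 1 each of 6 and 7. The largest, with 7 members over 163.8 kb (chr7:70744182-70907998), lay between Gm44812 and Mctp2 with scores of 9 to 13 and no shared interval inside. The group of 6 spanned 79.4 kb (chr10:120247356-120326752) between Llph and Hmga2, with scores of 9 to 11. Hmga2 encodes a chromatin architectural protein of embryonic mesenchyme that controls body size, yet 5 of the 6 were nearer to Llph. A group of 5 over 68.3 kb (chr9:88005992-88074298) lay between Tbx18 and Nt5e with scores of 9 to 11 and enclosed 1 shared interval. The share with a neighbour was 12.9% among the 295 shared intervals outside genes and 34.6% among the 1776 validation-only intervals in gene bodies, but a larger class has more neighbours at any spacing, so these shares cannot be ranked.

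Members were more dense around intervals of every other class. On autosomes, 173 members lay within 50 kb of a shared interval, in 29.2 Mb of eligible sequence, which gave 5.93 per Mb (5.08 to 6.88). Elsewhere on autosomes the density was 1.08 (1.02 to 1.14). This was not confined to shared intervals. Around first-ChIP-only intervals the density was 4.66 per Mb (3.79 to 5.68), around validation-only intervals at gene ends 3.48 (2.69 to 4.44) and around those in gene bodies 3.16 (2.49 to 3.95). Within 250 kb of a shared interval it was 3.77 (3.44 to 4.13). With members at or above the median score, of which there were fewer everywhere, the density within 50 kb of a shared interval was 3.70 and that of all autosomes 0.645. Open chromatin, mappability and copy number could not be measured from these lists, and their part in this nearness was not tested.

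Gap by gap, 155 of the 222 coding-gene gaps with a shared interval (69.8%) also held a member, against 4.44% of all gaps, and these were 17.8% of the 872 gaps with a member. Shared intervals lay in long gaps, which hold more members by their length, so the share was also read by gap size. In gaps of 500 kb to 1 Mb, 53 of 59 with a shared interval held a member (89.8%, 79.5 to 95.3) and 116 of 353 without one (32.9%, 28.2 to 37.9), at median lengths of 716 and 670 kb. In gaps over 1 Mb the shares were 88.1% (77.5 to 94.1) of 59 and 38.8% (32.7 to 45.4) of 224. In gaps under 100 kb they were 19.4% of 31 and 1.42% of 16665, but those lengths differed more, with medians of 47.5 and 12.5 kb. Of the 240 coding genes nearest to a shared interval outside genes, 145 (60.4%) were also nearest to a member, and these were 15.3% of the 950 genes with a member. Most genes with a shared interval thus had a member too. The low share in the other direction follows from class size and is not a trait of the members. With 240 genes against 950, most genes with members could not have had a shared interval outside genes. The same holds for the 222 gaps against 872.

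In all, 950 of 21779 protein-coding genes (4.36%) were nearest to at least 1 member, 703 of them to 1, 151 to 2, 48 to 3 and 48 to more. Gene lists were read against that background and against the length of sequence nearest to their genes, since genes with long flanks collect intervals. A median gene had 13.7 kb of eligible sequence nearest to it, and a median limb transcription factor gene 111 kb. Of the 50 limb transcription factor genes, 29 (58.0%) were nearest to a member, with 51 members in all and 4.20 per Mb of their sequence (3.13 to 5.53). Of the 46 limb signalling genes, 14 (30.4%) were, with 29 members and 4.21 per Mb (2.82 to 6.05), against 1.04 over all coding genes. Shared intervals outside genes stood at 0.907 and 1.45 per Mb in these lists, against 0.218 over all coding genes. Both values over all coding genes include the sex chromosomes. Autosomes alone held 1.20 members and 0.255 shared intervals outside genes per Mb. No test was made, and the lists had been used on these data before. With members at or above the median score, 8 limb signalling genes were nearest to one, and within 100 kb only, 19 limb transcription factor genes were.

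Shox2, a homeobox gene needed for the proximal limb skeleton, led the limb transcription factors with 7 members. All lay downstream on chromosome 3, at 286, 227, 173, 33.0, 32.0, 12.2 and 2.32 kb, with scores of 16, 11, 11, 19, 14, 11 and 11 in that order. The 4 nearest formed a run of 31.3 kb (chr3:66938435-66969753). In the 674.7 kb gap between Veph1 and Shox2, 4 shared intervals accompanied 8 members. Tbx18, a T-box gene of limb mesenchyme and the gene of the promoter printed above, had 5 members with scores of 9 to 15, 3 upstream and 2 downstream at 93.6 to 275 kb. Its relative Tbx15 had 3 at 93.2, 103 and 220 kb with scores of 20, 11 and 10.

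Sall1, a zinc finger gene mutated in Townes-Brocks syndrome, had 4 members at 91.4 to 598 kb with scores of 9 to 17. Hand2, which sets up the posterior limb bud upstream of Shh, had 3, all upstream on chromosome 8: at 56962262 to 56963127 (358 kb, score 19), at 57052605 to 57053048 (268 kb, score 8) and at 57133691 to 57134558 (187 kb, score 14). These members are placed by distance only, apart from the validation-only interval over the Hand2 promoter. No shared interval outside genes was nearest to Hand2. Msx1, a homeobox gene of the distal mesenchyme, had 1 member with a score of 21 at 93.5 kb upstream (chr5:37917783-37918343). Of the HoxA genes, which pattern the limb along its length, Hoxa9 had a member with a score of 19 at 1.16 kb. Hoxa13 had one with 13 at 15.6 kb and Hoxa11 one with 7 at 5.60 kb. Gli3, the effector of hedgehog signalling, had 2 upstream, with scores of 12 and 8 at 17.5 and 250 kb.

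Among signalling genes, Gas1, which encodes a hedgehog co-receptor, had the most members, 5, with scores of 20, 15, 11, 11 and 9, 4 of them upstream, and 3 shared intervals. The BMP ligand genes Bmp2 and Bmp4 had 3 each. Those of Bmp2 had scores of 22, 16 and 8 at 176, 3.57 and 213 kb, and those of Bmp4 had scores of 9 to 15 at 46.2 to 306 kb, with no shared interval outside genes. Wnt5a, a ligand of limb outgrowth, had 2 with scores of 10 and 8, and the Wnt antagonist gene Dkk3 2 with scores of 9 and 8. For Dusp6, a feedback inhibitor of FGF signalling, both members were high, with scores of 21 and 18 at 92.3 and 123 kb downstream. Fgf10, the mesenchymal ligand that starts limb outgrowth, had 2 downstream with scores of 11 and 9, in addition to the interval that the 1 kb limit excluded.

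Lists of tissues that form in the limb had fewer members. Joint genes had 7 of 18 nearest to a member, with 2.89 per Mb (1.49 to 5.05), led by Trps1 with 3, and by Gdf6, Sulf1 and Ank with 2 each. Sfrp5 followed with 1 member 3.10 kb upstream. Cartilage genes had 7 of 31, with 2.99 per Mb (1.49 to 5.34). After Sox9 with 4 came its partner Sox6 with 2, at 60.0 and 253 kb, and Runx2, Col11a1 and Runx1 with 1 each. Tendon and connective tissue genes had 6 of 34, with 2.44 per Mb (1.17 to 4.49).

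Within the tendon list, Col1a2, a chain of type I collagen, had 3 members with scores of 13, 11 and 10 at 16.5 and 12.9 kb downstream and 20.9 kb upstream. The downstream pair lay 56 and 339 bp from a first-ChIP interval. Ebf1 had 2 members, and Eya1 and Six2 had 1 each. These genes encode transcription regulators of connective tissue and muscle. Of the 16 small leucine-rich proteoglycan genes, only Dcn, which encodes decorin, was nearest to a member, at 166 kb with a score of 10.

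Axon guidance genes had 11 of 38 nearest to a member and 30 members in all. Because their flanks were long, with a median of 219 kb, this came to 1.82 per Mb (1.23 to 2.60). After Epha4 and Sema3a came the ephrin ligand gene Efnb2, with 5 members downstream at 376 to 1334 kb and scores of 9 to 17. Efna5 and Epha3 had 2 each. These 3 leading genes, Epha4, Sema3a and Efnb2, held 20 of the 30 members.

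Genes of the dorsoventral system itself had few. Of 16 listed, Ldb2, which encodes a cofactor of LIM homeodomain proteins, had 1 at 1.58 kb (score 10) and Lmx1b had 1. The Lmx1b member (chr2:33682229-33682738) lay 41.3 kb upstream with a score of 8, near the low end of the list. Beyond it, on the side of Mvb12b, stood shared intervals with scores of 41 and 26 that were nearer to Mvb12b. The density of this list, 1.28 per Mb (0.155 to 4.62), has too wide an interval to be set apart from the 1.04 of all coding genes. Gdf5, a joint ligand gene, had no member nearest to it, and only 0.00882 Mb of eligible sequence was nearest to Gdf5.

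Lists of other cell types and functions held few members. Muscle had 1 of 19 (Met), at 0.615 per Mb (0.0156 to 3.43), nerve and Schwann cells 1 of 15 (Isl1), at 0.414 (0.0105 to 2.31), and adult liver and gut genes 1 of 20 (Apob, nearest to 2 members), at 0.658 (0.0797 to 2.38). Housekeeping genes also had 1 of 20 (Eef2), but with short flanks this came to 3.33 per Mb (0.0842 to 18.5), above the values of the joint, cartilage and tendon lists with a far wider interval. These shares, from 5% to 6.67%, were near the 4.36% of all coding genes. Of the 19 Lmx1b-related genes from other organs, 2 were nearest to a member, among them Vegfa, at 0.674 per Mb (0.0817 to 2.44). None of the 22 ectoderm genes was nearest to a member, where 0 allows up to 4.09 per Mb by the exact interval. Endothelium had 3 of 15 (Ets1 with 3 members, Cdh5 with 2 and Emcn with 1), which gave 2.93 per Mb (1.08 to 6.38). The Cdh5 members lay 407 and 515 kb away. Blood had 2 of 15 (Ptprc with 3 and Runx1 with 1), at 3.79 per Mb (1.03 to 9.70). Within 100 kb only, 1 endothelium gene and 1 blood gene were nearest to a member. The member nearest to Runx1 counts for cartilage as well. The intervals of the endothelium and blood lists overlapped those of the joint, cartilage and tendon lists and contained the values of the limb transcription factor and limb signalling lists, so at these counts none of these lists could be told apart from them by density.

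**Figure D5:**
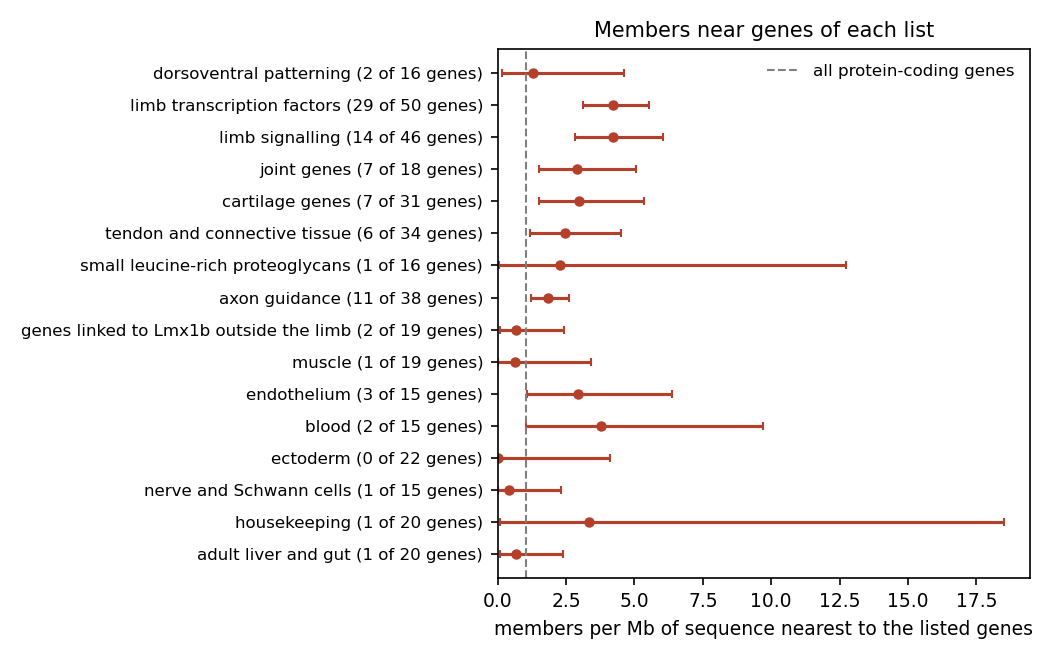
Members per Mb of eligible sequence nearest to the genes of each of the 16 lists (x axis), with exact 95% Poisson intervals as bars and, in brackets, how many listed genes were nearest to a member. The dashed line marks 1.04 per Mb for all protein-coding genes, sex chromosomes included. The limb transcription factor and limb signalling lists lie at 4.20 and 4.21.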

How the data were processed

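ChIP-seq interval lists of 2 LMX1B samples of limb buds were analysed, 1 sample per ChIP. The submitters' processing notes name BWA and the genome build mm10. Its version, the peak caller and the calling threshold were not given in the sources used here. The authors deposited each interval with a summit and a whole-number score without a stated unit or normalization. The score served to rank and filter intervals within the validation list only. Of the validation summits, 94.45% lay on a grid of 16 bp. The copy of the first-ChIP list deposited with the validation sample was counted once. The input had no interval list and entered no comparison. Sequencing depth is unknown, since the lists carry no read counts. Tracks were tied to samples by name.

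Gene ends came from a RefSeq table of GRCm38.p6, whose coordinates are those of mm10, with 49603 genes (21779 protein-coding) without entries starting before 3 Mb (chromosome Y kept). Strand came from the RefSeq promoter table and was known for part of the genes. Exons were not resolved. Overlap was 1 bp or more. Distances run from the interval midpoint to the nearer gene end, and coordinates count from 1. Neighbours were members with midpoints within 50 kb. Densities divide counts by sequence that the rule could have selected. Shares have 95% Wilson and densities exact Poisson intervals. No test was made.

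Of 395 entries in 16 gene lists, 394 matched. Members and lists were chosen with earlier results of these data known. Named items were, by rule, the 10 highest scores, the 3 smallest gaps to the first ChIP, the 3 nearest to the 1 kb limit, the 5 farthest from coding genes, the 5 largest groups, the genes nearest to the most members (with ties), up to 5 genes per list by number of members and then distance, and Lmx1b and Gdf5. Hoxa9, Hoxa11, Hoxa13, Msx1, Gli3, Dusp6, Fgf10, Robo1, Efnb1 and the Y member lie outside the rule and were chosen after their values were seen. Alternatives covered the score, the overlap and gene-end limits, the neighbour distance and the gene assignment. Motif searches in members were not run. Some items are not reported here. The overlap and distance functions were tested on simulated data. Python 3.11.15, numpy 2.4.6, scipy 1.17.1 and matplotlib 3.10.9 were used.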

Additional observations from a re-analysis of the deposited data

How the results depend on the processing

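With only the validation intervals at or above the median score of 11, 755 members remained, 20.7% of them had another within 50 kb and 565 coding genes were nearest to one; fewer intervals were compared by construction. The share with a neighbour was 11.6% at 10 kb and 35.2% at 100 kb, where the distance itself was changed, and 30.6% when only protein-coding genes defined the members, a setting added after seeing the data under which more intervals qualified. The median distance to a coding gene was 110.5 kb when members had to lie over 5 kb from gene ends, which removes the nearest by construction. Counting both flanking coding genes gave 1602 genes. Of the other planned values for the main counts and medians, 11 stayed within 1.5-fold or their interval, as did 15 of those added later. For the median score that interval was its quartile range, a wide limit. Its value of 13 among members at or above the list's median, against 11, therefore counted as staying. Of the list counts and densities, all under settings added after seeing the data, 121 stayed and 31 moved. Within 100 kb only, 19 limb transcription factor genes (29 without the limit), 2 joint (7), 3 cartilage (7) and 4 axon guidance genes (11) were nearest to a member. At or above the median score, 8 limb signalling (14), 4 joint (7), 3 tendon (6) and 0 dorsoventral genes (2) were, and the density within 50 kb of a shared interval was 3.70 per Mb (5.93). Counting both flanks gave 19 axon guidance, 12 tendon and 5 dorsoventral genes, and members defined by coding genes only gave 4 dorsoventral genes. The remaining moved counts were in lists with at most 3 genes nearest to a member, and in autosomal density, 0.645 at or above the median score and 1.30 with coding genes only (1.20). Apart from settings that remove or add intervals or genes by construction, the cause was not tested. No paired analysis was possible because each ChIP had 1 sample. The share of members with TAATTA and its alternatives were not run, because no genome sequence of the build was used here. Depth is unknown, so absence from the first list cannot be read as absence of binding.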
